A study of Mus musculus with 6 samples.

Results

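The collagen chain genes are 43 mouse genes, each encoding 1 chain of a collagen, that were chosen by symbol from the 55471 gene identifiers of the expression table. All 43 symbols matched 1 identifier each. They were measured by RNA sequencing in 6 libraries of endosteal mesenchymal stromal cells, which sit on the marrow-facing side of bone, from C57BL/6J mice. In the Bap1 cKO group (3 libraries, Prx1-cre;Bap1fl/fl) a Cre transgene driven by the Prx1 promoter, which is active in limb mesenchyme, was combined with floxed Bap1 alleles. In the Bap1 WT group (3 libraries, Bap1fl/fl) the floxed alleles were carried without Cre, so both groups had floxed alleles. Whether each library was made from a different animal is not stated in the labels, and p-values therefore cover the spread of these samples alone. Per the series title, the comparison addresses how Bap1, a deubiquitinase acting on histone H2A, shapes the niche for lymphocyte formation.

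Collagens are built from chains that wind around each other into a rope-like helix, either from copies of the same chain or from different partner chains. Fibrillar collagens pack into the tensile fibres of bone, tendon, skin and cartilage, network collagens form sheets such as the basement membrane, and fibril-associated collagens (FACITs) decorate the surface of fibres. In bone the mineral is laid down on collagen I fibres made by osteoblasts, the bone-forming cells.

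The values are RPKM, read density per kilobase of transcript, scaled to the mapped reads of the library, so levels of different genes can be compared. Depth, estimated from the step sizes of low values, was 13500000 to 23050000 fragments in the cKO libraries and 13600000 to 15400000 fragments in the WT libraries, and a floor of 3 fragments was worth 0.0758 RPKM or less for every tested chain. Bap1 itself measured 28.27, 25.16 and 22.99 RPKM in cKO replicates 1 to 3, against 22.8, 22.72 and 24.01 RPKM in WT replicates 1 to 3. A whole-gene value cannot show whether floxed exons were removed, so the group names are those of the labels. Of 15 stromal cell markers, 8 exceeded 1 RPKM in every cKO library and 11 in every WT library, and their summed level was 167 to 276 RPKM in the cKO and 952 to 981 RPKM in the WT libraries. Cxcl12 alone measured 12.41 to 64.22 RPKM in the cKO and 488.27 to 521.07 RPKM in the WT libraries. Of the 12 stromal markers tested as described below, 7 fell and Pdgfra rose, beside 26.5% and 34.7% of all tested genes. The share called in either direction was 61.2% over all tested genes. Prrx1, Prrx2, Twist1 and Nt5e did not pass. The stromal markers Lepr (0.14 RPKM at most) and Lum (0 in every library) were absent or nearly so. Osteoblast markers summed to 21.7 to 48 RPKM in the cKO and 400 to 468 RPKM in the WT libraries. Spp1 was the largest part, at 12.86 to 35.31 RPKM in the cKO and 342.3 to 405.63 RPKM in the WT libraries. Of the 6 osteoblast markers tested, 5 fell and Dlx5 did not pass, while 26.5% of all tested genes fell. Sp7, Bglap, Bglap2, Ibsp and Dmp1 stayed under 1 RPKM in every library. Endothelial markers summed to 0.84 RPKM or less and blood cell markers to 2.89 RPKM or less in any library. Markers of kidney tubule epithelium summed to 132 to 251 RPKM in the cKO and 19.7 to 27.4 RPKM in the WT libraries. In the cKO libraries nearly all of that sum was Pax8, while Umod, Calb1, Avpr2 and Emx1 were at 0 in all 6 libraries. Smooth muscle markers set cKO replicate 3, also the deepest library, apart from the other cKO libraries. They summed to 154, 254 and 2718 RPKM in cKO replicates 1 to 3, against 2210 to 2485 RPKM in the WT libraries. The makeup of the sums differed. Acta2 measured 1532.34 RPKM in cKO replicate 3 and 1944.95 to 2145.34 RPKM in WT. Tagln measured 1006.19 RPKM in cKO replicate 3 and 152.25 to 203.47 RPKM in WT. Of the 6 smooth muscle markers tested, 2 fell and 4 did not pass, while 26.5% of all tested genes fell. Myh11 and Des reached 0.43 and 0.87 RPKM at most in any library. The part of these cell type markers in the results was not tested. In such bulk samples, fewer cells of a type and less RNA per cell cannot be told apart.

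Most abundant collagen chains were lower in the libraries labelled cKO, while Col4a1 and Col4a2 of the basement membrane, Col11a1, Col14a1 and Col25a1 were higher. Of the 43 chains, 23 averaged 1 RPKM or more across the 6 libraries and were tested with limma on log2(RPKM + 1). With a Benjamini-Hochberg adjusted p under 0.05 over all 12223 genes tested, 5 chains rose, 15 fell and 3 did not pass. Thus 21.7% of the tested chains rose and 65.2% fell, while 34.7% of all tested genes rose and 26.5% fell, 61.2% together. The median log2 difference was −2.73 over the 23 tested chains and 0.09 over all tested genes. The groups did not overlap for the same 5 and 15 chains, and 39.2% of all tested genes lay wholly above and 29.8% wholly below the WT libraries. A chain could pass the minimum through its level in 1 group alone, as could any other gene. Col14a1 and Col25a1 reached it through the cKO libraries alone, and Col5a3 and Col27a1 through the WT libraries alone. The selection thus favoured a difference in these chains. An exact permutation test of 3 against 3 libraries cannot go below p = 0.1, so the calls rest on the spread that limma pools over genes.

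**Figure D1:**
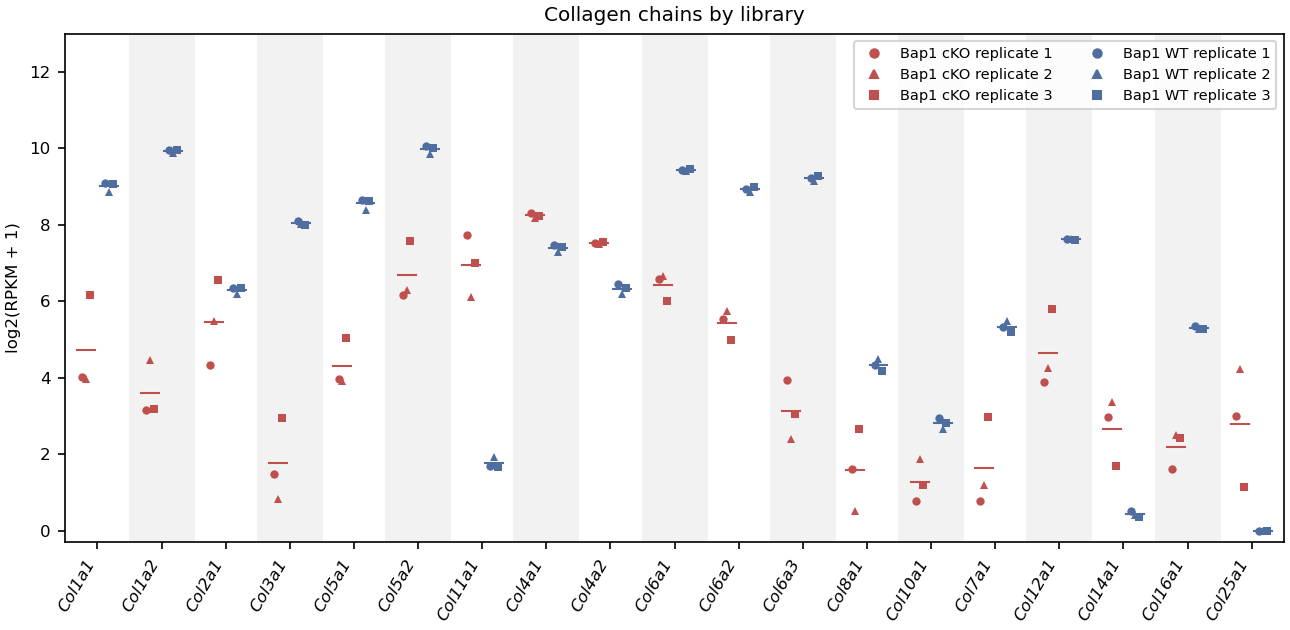
The vertical axis is log2(RPKM + 1) of the 19 chains with a mean of at least 5 RPKM in either group. Each symbol is 1 library, red for Bap1 cKO and blue for Bap1 WT, and the short lines are the means of 3 libraries. The WT symbols lie close together, while the cKO symbols of Col1a1, Col7a1, Col12a1 and Col25a1 are spread widely.

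The summed level of all 43 chains was 1042, 934.1 and 1210 RPKM in cKO replicates 1 to 3, against 5723, 5259 and 5703 RPKM in WT replicates 1 to 3. The sum was 5.24-fold lower in the cKO libraries, whose values did not overlap those of WT (exact permutation test, 2-sided, p = 0.1, the smallest it can give). Collagens made up 0.138 to 0.178% of all RPKM in the cKO libraries and 0.751 to 0.824% in the WT libraries.

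The makeup of this collagen pool also differed. Fibrillar chains held 34.3 ± 9.07% of the summed collagen RPKM in the cKO libraries and 58.1 ± 0.758% in the WT libraries (mean ± SD over 3 libraries, as elsewhere for a value with ±, unless SE is given). The basement membrane chains held 46.8 ± 5.28% in the cKO libraries and 4.48 ± 0.131% in the WT libraries. Collagen VI and its relatives held 13.4 ± 4.41% in the cKO libraries and 31.9 ± 0.701% in the WT libraries. None of these shares overlapped between the groups, and each had p = 0.1 in the exact permutation test. The share of Col11a1 alone was 20.4, 7.27 and 10.5% in cKO replicates 1 to 3, against 0.0395, 0.0529 and 0.0381% in WT replicates 1 to 3. The FACIT share, 3.65 ± 1.41% in the cKO and 4.24 ± 0.205% in the WT libraries, overlapped between the groups (exact permutation p = 0.7), although the summed FACIT level was 5.95-fold lower.

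**Figure D2:**
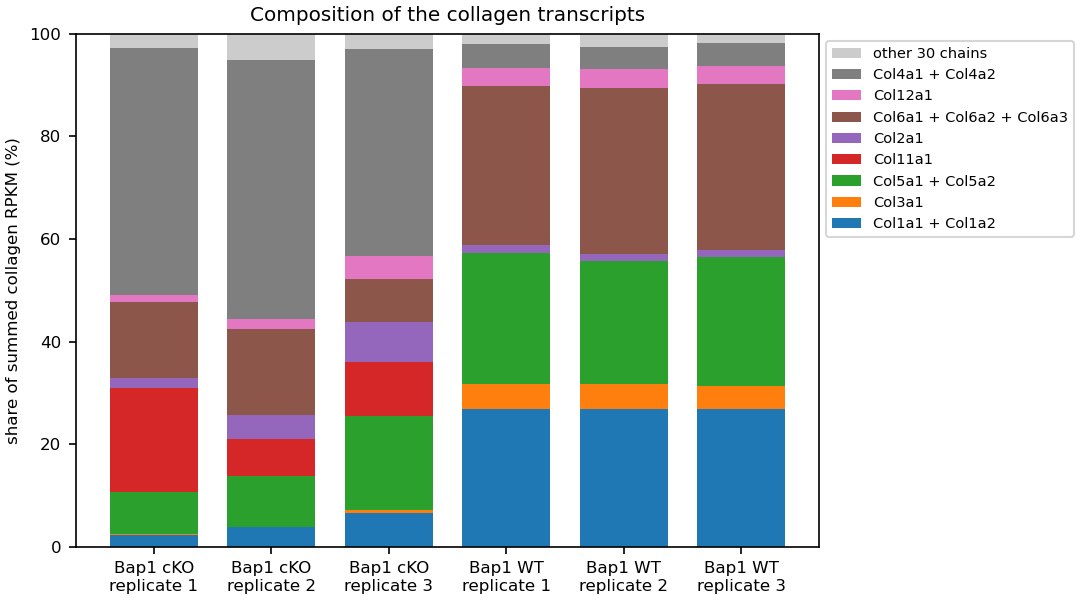
The bars give the share of the summed collagen RPKM (vertical axis, %) in each library, with partner chains of a collagen type added together. Col4a1 and Col4a2 take 40.3 to 50.4% in the Bap1 cKO libraries and 4.32 to 4.59% in the Bap1 WT libraries, and Col1a1 with Col1a2 takes 2.23 to 6.57% in Bap1 cKO and 26.8 to 26.9% in Bap1 WT.

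Of the 11 fibrillar chains, 9 were tested, of which 7 fell, 1 rose and 1 did not pass. That is 77.8% lower and 11.1% higher, beside 26.5% and 34.7% of all tested genes. Collagen I, the main protein of bone matrix, is assembled from the products of Col1a1 (chromosome 11, 94936224 to 94953042, GRCm38) and Col1a2 (chromosome 6, 4504814 to 4541544). Col1a1 measured 15.31, 14.64 and 71.44 RPKM in cKO replicates 1 to 3, against 541.83, 462.77 and 539.91 RPKM in the WT libraries. All cKO values lay far below WT, and replicate 3 stood well above the other cKO libraries. Col1a1 fell 15.2-fold, and 34.4-fold without cKO replicate 3 (log2 difference −4.28 ± 0.57 (SE), limma adjusted p = 0.000868). Col1a2 measured 7.92, 21.22 and 8.07 RPKM across the cKO libraries, against 994.81, 946.43 and 986.43 RPKM in the WT libraries. Here replicate 2 was the highest cKO library, and without it the fall of 78.7-fold became 122-fold (log2 difference −6.33 ± 0.34, limma adjusted p = 2.48e-05).

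Col3a1, the chain of collagen III that forms fine fibres in soft tissue, measured 1.81, 0.78 and 6.76 RPKM across the cKO libraries and 273.42, 259.85 and 255.98 RPKM in the WT libraries (chromosome 1, 45311538 to 45349706). It fell 84.4-fold, and 203-fold without cKO replicate 3 (limma adjusted p = 9.77e-05). Col5a2 lies 24614 bp from Col3a1 on the opposite strand, with the ends of the genes facing each other. It encodes a chain of collagen V, which starts and limits the growth of collagen I fibres, and was the most abundant collagen chain in every WT library except replicate 2. Col5a2 measured 70.88, 77.94 and 190.57 RPKM across the cKO libraries, against 1065.63, 927.63 and 1036.74 RPKM in the WT libraries. It fell 8.93-fold, and 13.6-fold without cKO replicate 3 (limma adjusted p = 0.000361). Its partner Col5a1 measured 14.8, 14.11 and 31.95 RPKM across the cKO libraries and 402.42, 334.56 and 396.7 RPKM in the WT libraries, a fall of 18.6-fold (limma adjusted p = 6.46e-05). In both collagen V chains the cKO libraries lay below every WT library, with replicate 3 the highest of the cKO libraries. The minor chain Col5a3 also fell (limma adjusted p = 6.81e-05), at 0.05, 0 and 0.21 RPKM in the cKO libraries and 3.34 to 4.04 RPKM in WT. Col27a1, a cartilage fibrillar chain, fell 8.05-fold to 0.437 ± 0.202 RPKM in cKO, against 3.51 ± 0.447 RPKM in WT (limma adjusted p = 0.000248).

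Col11a1 was the fibrillar chain that rose. It encodes a chain of collagen XI, which sets fibre diameter in cartilage and is related in sequence to Col5a1. Col11a1 (chromosome 3, 114030540 to 114220718) measured 212.59, 67.9 and 127.23 RPKM across the cKO libraries, against 2.26, 2.78 and 2.17 RPKM in the WT libraries. Every cKO value lay above every WT value, with a 56.5-fold rise (log2 difference 5.19 ± 0.38, limma adjusted p = 7.45e-05). Col11a2, its partner in collagen XI, was under the minimum of the test at 0.67, 1.56 and 0.85 RPKM in the cKO and 0.34, 0.48 and 0.25 RPKM in the WT libraries. Col2a1, the main collagen of cartilage, measured 19.23, 43.69 and 93.74 RPKM across the cKO libraries and 80.57, 72.26 and 80.72 RPKM in the WT libraries. Its groups overlapped, since replicate 3 lay above and replicates 1 and 2 below WT, and it did not pass (limma adjusted p = 0.194), although without cKO replicate 3 it fell (limma adjusted p = 0.00865, log2 difference −1.39). The chondrocyte markers summed to 16.7 to 34.5 RPKM in the cKO and 5.47 to 5.89 RPKM in the WT libraries. Of the 4 chondrocyte markers tested, 3 rose and 1 fell, beside 34.7% and 26.5% of all tested genes. Sox9 averaged 7.15 ± 3.8 RPKM in cKO and 1.07 ± 0.11 RPKM in WT, Comp 9.86 ± 9.66 RPKM in cKO and 0.463 ± 0.27 RPKM in WT, and Cnmd 8.22 ± 5.77 RPKM in cKO, listed at 0 in each WT library. Sox5 fell to 0.01 RPKM or less in each cKO library, against 2.63 ± 0.202 RPKM in WT. Matn3, under the minimum of the test, measured 0.08 RPKM at most in the cKO and 1.1 to 1.37 RPKM in the WT libraries. Acan reached 0.21 RPKM at most, and Hapln1 and Snorc were at 0 in all 6 libraries. The FACIT Col9a1, which coats cartilage fibres together with Col9a2 and Col9a3, was also at 0 in all 6 libraries. The part of the cartilage genes in the rise of Col11a1 was not tested.

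The promoters of Col1a2 and Col3a1, among the chains with the strongest falls, and of Col11a1, the fibrillar chain that rose, are shown to set chains of opposite direction side by side. They run from 250 bases before to 30 bases after the RefSeq start (GRCm38.p6), at chr6:4505368-4505647, chr1:45311288-45311567 and chr3:114030290-114030569, all on the plus strand. The Col1a2 window lies within the GENCODE span of the gene given above, which starts at 4504814, before the RefSeq start. Capitals mark the letters of the TATA box (TATAAA), the CCAAT box (CCAAT) and the GC box (GGGCGG) on either strand, wherever they occur. The TATAAA of Col3a1 lies at −117 from the start.
Col1a2: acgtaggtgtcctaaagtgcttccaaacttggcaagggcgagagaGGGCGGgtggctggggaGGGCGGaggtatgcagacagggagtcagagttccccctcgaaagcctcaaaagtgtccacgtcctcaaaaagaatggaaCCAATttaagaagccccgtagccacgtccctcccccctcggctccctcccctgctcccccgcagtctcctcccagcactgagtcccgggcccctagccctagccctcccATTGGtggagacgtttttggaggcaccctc
Col3a1: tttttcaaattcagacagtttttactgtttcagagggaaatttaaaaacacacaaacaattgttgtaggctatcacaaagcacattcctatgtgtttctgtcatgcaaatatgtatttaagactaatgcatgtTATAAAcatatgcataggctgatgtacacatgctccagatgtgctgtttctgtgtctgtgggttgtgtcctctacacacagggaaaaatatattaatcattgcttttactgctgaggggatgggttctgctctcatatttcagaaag
Col11a1: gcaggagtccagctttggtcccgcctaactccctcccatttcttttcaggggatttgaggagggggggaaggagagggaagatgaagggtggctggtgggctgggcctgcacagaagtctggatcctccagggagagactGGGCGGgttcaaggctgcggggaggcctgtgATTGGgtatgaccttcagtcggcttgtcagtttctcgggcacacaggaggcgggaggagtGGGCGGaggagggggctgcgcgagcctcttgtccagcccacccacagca
Col1a2 and Col11a1 hold CCAAT and GC boxes, and Col3a1 holds a TATAAA and neither of the others. Of the 43 chains, 34 have a promoter window in the RefSeq table, in 37 windows of 300 bases. Over all 32817 such windows of mouse genes, 13.6% held TATAAA, 37.4% held CCAAT and 35.6% held GGGCGG on either strand. Among the 13 windows of chains that fell, 2 held TATAAA, 4 CCAAT and 9 GGGCGG, and among the 4 windows of chains that rose, none held TATAAA and all 4 held CCAAT and GGGCGG. The windows of chains that rose had a median of 28 CpG and those of chains that fell 12, against 7 over all windows. These counts describe the letters only, and the windows of Col4a1 and Col4a2 overlap each other. Col6a2 is counted with 2 windows among those of chains that fell. Col1a1, Col5a2 and Col12a1, which fell, and Col14a1, which rose, have no window.

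**Figure D3:**
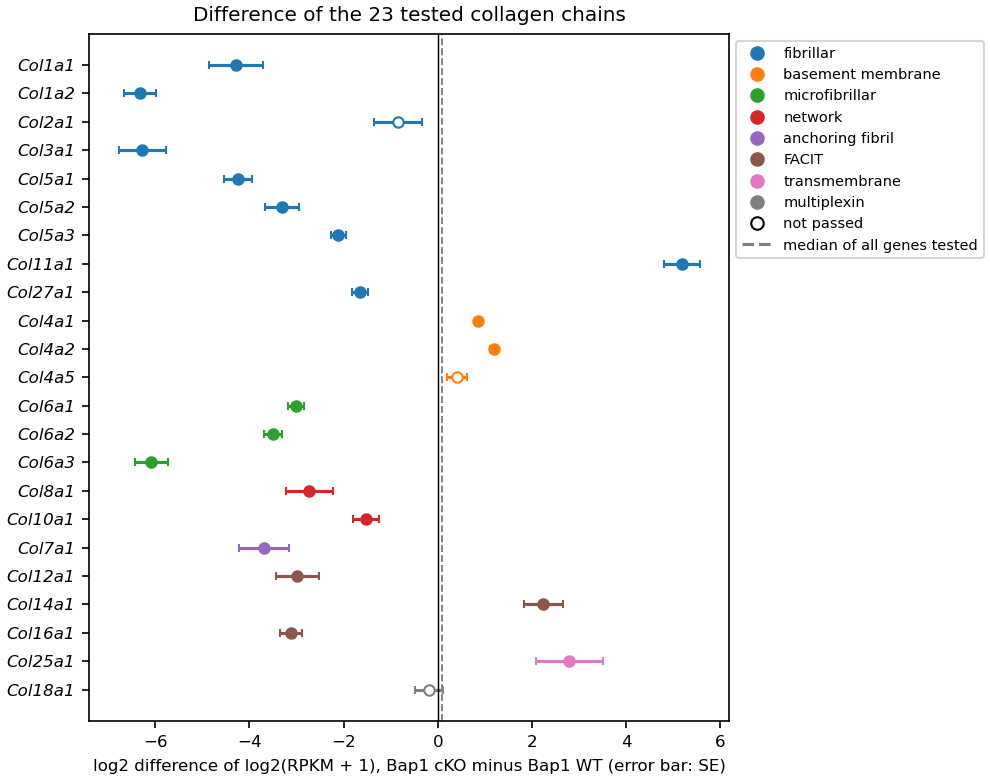
The horizontal axis is the difference of log2(RPKM + 1), Bap1 cKO minus Bap1 WT, of the 23 tested chains with its SE, coloured by structural class. Filled symbols passed and open symbols did not, and the dashed line marks 0.09, the median of all tested genes. Col1a2, Col3a1 and Col6a3 lie below −6 and Col11a1 lies at 5.19.

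Of the 3 basement membrane chains tested, 2 rose and 1 did not pass. The share called, 66.7%, was near the 61.2% of all tested genes called in either direction, of which 34.7% rose. Col4a1 and Col4a2 wind together into the collagen IV found in nearly all basement membranes. Col4a1 measured 317.75, 289.41 and 301.97 RPKM in cKO replicates 1 to 3, against 176.07, 155.18 and 170.83 RPKM in the WT libraries. Col4a2 measured 184.62, 181.31 and 185.12 RPKM across the cKO libraries, against 86.43, 72.05 and 81.24 RPKM in the WT libraries. In both chains the cKO libraries lay close together and above every WT library. Col4a1 rose 1.81-fold (log2 difference 0.85 ± 0.07, limma adjusted p = 0.000138) and Col4a2 rose 2.3-fold (1.19 ± 0.08, limma adjusted p = 5.67e-05). Col4a1 was the most abundant collagen chain in each cKO library.

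Col4a1 and Col4a2 start back to back on chromosome 8 on opposite strands, and their first exons overlap. The stretch is shown because both genes rose, and it covers chr8:11312775-11312856 (plus strand, RefSeq, GRCm38.p6), with the 22 bases shared by both first exons in capitals.
Col4a1 and Col4a2: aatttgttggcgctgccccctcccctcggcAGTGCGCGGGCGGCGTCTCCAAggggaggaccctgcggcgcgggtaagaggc
Col4a2 is read rightwards from the first capital and Col4a1 leftwards from the last one. The libraries were stranded, per the labels, but whether the counting used the strand is not given in the sources used here.

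The other collagen IV chains, which replace Col4a1 and Col4a2 in the basement membranes of the kidney filter and other specialised sites, were scarce. Col4a5 measured 2.45, 2.13 and 4.41 RPKM across the cKO and 1.77, 2.16 and 1.87 RPKM in the WT libraries, overlapped between the groups and did not pass (limma adjusted p = 0.16). Col4a3 and Col4a4, a further pair of opposite strands with starts 71 bp apart on chromosome 1, were under the minimum of the test. Col4a3 measured 0.86, 1.01 and 0.89 RPKM across the cKO libraries and 0.21, 0.05 and 0.03 RPKM in the WT libraries. Col4a4 measured 0.74, 1.33 and 1.15 RPKM across the cKO libraries and 0, 0.02 and 0.01 RPKM in the WT libraries. For both genes the cKO values lay above the WT values. Col4a6 did not exceed 0.04 RPKM in any library. The 6 markers of podocytes, the cells that make Col4a3 to Col4a5 in the kidney, summed to 31 to 63.4 RPKM in the cKO and 14.6 to 17.6 RPKM in the WT libraries, nearly all of it Synpo, while Nphs1 and Wt1 were at 0 in all 6 libraries.

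Collagen VI forms beaded microfilaments around cells from the products of Col6a1, Col6a2 and Col6a3. All 3 genes fell, beside 26.5% of all tested genes. Col6a1 measured 94.48, 100.39 and 63.59 RPKM across the cKO libraries, against 696.23, 674.56 and 710.52 RPKM in the WT libraries. Col6a2 measured 45.81, 52.7 and 30.81 RPKM across the cKO libraries, against 489.36, 463.9 and 507.26 RPKM in the WT libraries. Col6a3 measured 14.26, 4.27 and 7.33 RPKM across the cKO libraries, against 596.13, 563.76 and 625.57 RPKM in the WT libraries. No group overlapped, and unlike in the collagen I and V genes Col1a1, Col5a1 and Col5a2, cKO replicate 3 was not the highest cKO library. The falls were 8.05-fold for Col6a1, 11.3-fold for Col6a2 and 69-fold for Col6a3 (limma adjusted p = 2.7e-05, 2.28e-05 and 3.11e-05). Col6a1 and Col6a2 are neighbours on chromosome 10, 85161 bp apart on the same strand, while Col6a3 lies on chromosome 1. Col18a1, the next collagen gene along chromosome 10, 326009 bp from Col6a1, did not pass, at 2.48, 2.75 and 6.13 RPKM in cKO and 4.89, 3.12 and 4.55 RPKM in WT (limma adjusted p = 0.635). The alternative chains Col6a4, Col6a5 and Col6a6 reached at most 0.43 RPKM in any library.

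Partner chains thus changed by unequal amounts. The ratio of Col6a3 to Col6a1 was 0.151, 0.0425 and 0.115 in the cKO libraries, against 0.856, 0.836 and 0.88 in the WT libraries. The ratio of Col5a2 to Col5a1 was 4.79, 5.52 and 5.96 in the cKO libraries and 2.65, 2.77 and 2.61 in the WT libraries. The ratio of Col1a1 to Col1a2 was 1.93, 0.69 and 8.85 in the cKO libraries and 0.545, 0.489 and 0.547 in the WT libraries. Its log2 difference of 2.11 became 1.13 without cKO replicate 3 and 2.97 without cKO replicate 2. The ratios of Col4a2 to Col4a1, 0.581 to 0.626 in cKO and 0.464 to 0.491 in WT, and of Col6a1 to Col6a2, 1.9 to 2.06 in cKO and 1.4 to 1.45 in WT, moved least. In none of the 5 ratios did the groups overlap (exact permutation test, 2-sided, p = 0.1 each and 0.1 after Benjamini-Hochberg adjustment over the 5, the smallest it can give).

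**Figure D4:**
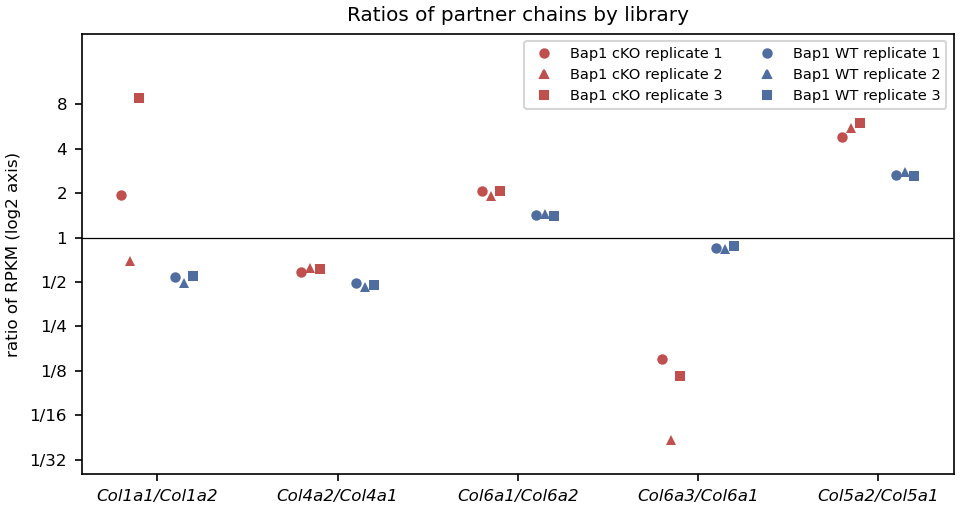
The vertical axis, on a log2 scale, is the ratio of RPKM of partner chains in each library, with Bap1 cKO in red and Bap1 WT in blue. The Col4a2 to Col4a1 and Col6a1 to Col6a2 ratios shift slightly, whereas the Col6a3 to Col6a1 ratio lies at 0.0425 to 0.151 in Bap1 cKO and 0.836 to 0.88 in Bap1 WT.

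Among the 3 FACITs tested, Col12a1 and Col16a1 fell and Col14a1 rose, beside 26.5% and 34.7% of all tested genes. Col12a1, which links collagen I fibres in dense tissue, measured 13.77, 18.15 and 54.66 RPKM across the cKO libraries, against 196.66, 196.79 and 195.01 RPKM in the WT libraries. The WT libraries were nearly equal and the cKO libraries all lower, with replicate 3 the highest, and the fall of 6.8-fold became 12.3-fold without it (limma adjusted p = 0.00164). Col16a1, a minor fibre-associated chain, measured 2.09, 4.66 and 4.38 RPKM across the cKO libraries and 40.22, 38.08 and 37.78 RPKM in the WT libraries, a fall of 10.4-fold (limma adjusted p = 7.88e-05). Col14a1, which like Col12a1 binds the surface of collagen I fibres, measured 6.8, 9.29 and 2.24 RPKM across the cKO libraries and 0.43, 0.34 and 0.29 RPKM in the WT libraries. It rose 17.3-fold without overlap of the groups (limma adjusted p = 0.00342), having reached the minimum of the test through the cKO libraries alone. Of the remaining FACITs, Col9a2, Col9a3, Col19a1 and Col22a1 were under the minimum of the test, the highest being Col9a3 with 1.03, 1.4 and 0.34 RPKM in cKO and 0.3, 0.32 and 0.71 RPKM in WT, which overlapped.

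All 3 tested network and anchoring chains fell, beside 26.5% of all tested genes. Col7a1, the chain of the fibrils that anchor skin epithelium, measured 0.72, 1.28 and 6.84 RPKM across the cKO libraries, against 38.87, 44.14 and 35.78 RPKM in the WT libraries. Its fall of 13.4-fold became 39.6-fold without cKO replicate 3 (limma adjusted p = 0.00123). Col8a1, a short-chain network collagen, measured 2.08, 0.42 and 5.36 RPKM across the cKO and 19.07, 21.47 and 16.99 RPKM in the WT libraries, and its fall of 7.32-fold became 15.3-fold without cKO replicate 3 (limma adjusted p = 0.00342). Col10a1, the collagen of hypertrophic cartilage, measured 0.7, 2.69 and 1.28 RPKM across the cKO and 6.73, 5.32 and 6.11 RPKM in the WT libraries. In all 3 genes the groups were separate, and the fall of Col10a1, 3.89-fold, became 6.11-fold without cKO replicate 2 (limma adjusted p = 0.00351).

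Among the membrane-spanning collagens Col25a1, a neuronal chain also needed for the innervation of muscle, measured 7.03, 17.75 and 1.22 RPKM across the cKO libraries, while each WT library listed it at 0. It was called higher (limma adjusted p = 0.0133), with the cKO libraries spread over a wide range. Col25a1 reached the minimum of the test through the cKO libraries alone. Col23a1 stayed at 0.65 RPKM or less and Col17a1, a collagen of the epithelial anchoring complex, at 0.82 RPKM or less in any library. Col13a1 was at 0 in all 6 libraries, as was the FACIT Col19a1. The 14 general epithelial markers summed to 8.69 to 13.3 RPKM in the cKO and 15.7 to 17.2 RPKM in the WT libraries. Of the 3 tested, Esrp2 rose, Krt19 fell and Krt7 did not pass, beside 61.2% of all tested genes called in either direction. Epcam and Cdh1 reached 0.29 and 0.12 RPKM at most, and Cldn3, Cldn4, Grhl2 and Prom2 were at 0 in all 6 libraries. Of the chains not described above, Col24a1 reached 1.21 RPKM in WT replicate 2, and Col8a2, Col15a1, Col26a1 and Col28a1 stayed at 0.47 RPKM or less. Each cKO library listed Col28a1 at 0, against 0.47, 0.45 and 0.45 RPKM in the WT libraries.

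The cKO libraries differed more among themselves than the WT libraries did. The highest library stood 2.91 times above the lowest in the cKO group and 1.19 times in the WT group, in the median of the 22 tested chains above 0 in every library of the group. Of the 15 chains that fell, 9 were highest in cKO replicate 3, 5 in replicate 2 and 1 in replicate 1. Their median level was 5.4, 3.73 and 11.3% of the WT mean in cKO replicates 1 to 3. The 9 chains, among them Col1a1, Col3a1, Col5a1, Col5a2, Col7a1 and Col12a1, stood over 1.5 times above the mean of the other cKO libraries in replicate 3, whereas Col1a2, the 3 collagen VI chains and Col10a1 stood below it. The smooth muscle markers given above also separated cKO replicate 3, and their part in this difference was not tested. Without cKO replicate 3, 5 chains rose and 16 fell. Of all 12185 genes tested without it, 4483 rose and 3623 fell. With all 6 libraries, 4237 of 12223 genes rose and 3239 fell.

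**Figure D5:**
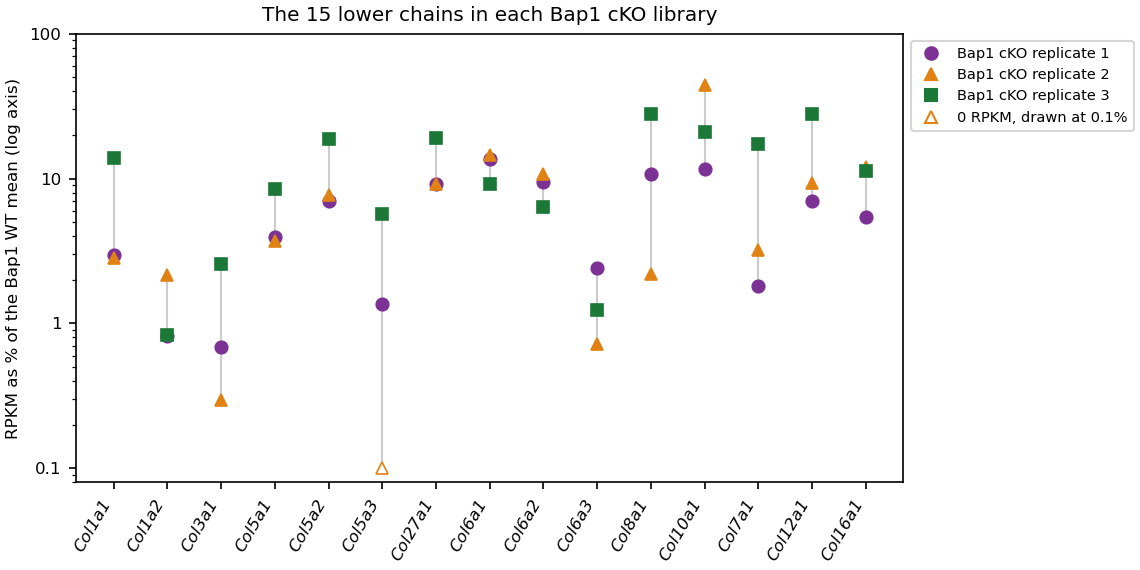
The vertical axis, on a log scale, is the RPKM of each chain that fell in each Bap1 cKO library as a percentage of the Bap1 WT mean. Replicate 3 (green squares) is highest for 9 of the 15 chains, and every library of every chain lies below 100%.

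The genes that modify, process and bind collagen changed in both directions. Over 3 lists with 37 tested genes, 9 rose and 18 fell, which is 24.3% and 48.6%, beside 34.7% and 26.5% of all tested genes. The median log2 difference of all tested genes varied by chromosome. Among chromosomes with tested chains it ran from −0.25 on chromosome 6 to 0.44 on chromosome 4. With the median difference of each chromosome subtracted, 4 of the 37 rose and 20 fell, beside 26.5% and 29.3% of all tested genes, 55.7% together. In the endoplasmic reticulum list, 5 of 18 tested genes rose and 9 fell (27.8% and 50%, beside the same 34.7% and 26.5% of all genes). Plod2, which hydroxylates the ends of collagen chains for stable cross-links in bone, measured 466.13, 294.46 and 387.12 RPKM across the cKO libraries and 38.29, 39.25 and 37.88 RPKM in the WT libraries. It rose 9.94-fold without overlap of the groups (limma adjusted p = 1.63e-05). Its relative Plod1, chosen after its values were seen, fell 3.82-fold to 12.3 ± 3.49 RPKM in cKO, against 46.8 ± 2.64 RPKM in WT (limma adjusted p = 0.000327). P3h4, a partner in hydroxylation complexes, rose 2.05-fold (limma adjusted p = 0.000123). Creb3l1, a transcription factor that drives collagen I secretion by osteoblasts, measured 0.67, 0.28 and 2.44 RPKM across the cKO and 27.43, 26.34 and 28.93 RPKM in the WT libraries, and its fall of 24.4-fold became 58-fold without cKO replicate 3 (limma adjusted p = 0.000161). The collagen galactosyltransferase Colgalt1 fell 2.32-fold (limma adjusted p = 0.000235).

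In the list of procollagen processing and cross-linking, 2 of 12 tested genes rose and 6 fell (16.7% and 50%, beside 34.7% and 26.5% of all genes). The number that rose was 1 without cKO replicate 1, without cKO replicate 2 or without any 1 of the WT libraries, and 4 without cKO replicate 3. The lysyl oxidase relative Loxl3, which cross-links collagen, measured 0.23, 0.23 and 1.12 RPKM across the cKO libraries, against 95.52, 84.51 and 99.69 RPKM in the WT libraries. Even the highest cKO library lay far below every WT library, and the fall of 177-fold became 405-fold without that library, cKO replicate 3 (limma adjusted p = 5.64e-06). Bmp1, the protease that removes the carboxy-terminal propeptide of fibrillar collagens, fell 2.7-fold (limma adjusted p = 2.81e-05), and Pcolce2, which enhances that step, fell to 0.363 ± 0.414 RPKM in cKO, against 11.5 ± 1.93 RPKM in WT, 31.8-fold or 92.3-fold without cKO replicate 2 (limma adjusted p = 7.19e-05). The collagen-binding glycoprotein Sparc fell 3.46-fold (limma adjusted p = 6.59e-05). Among the collagen receptors, 2 of 7 tested genes rose and 3 fell, 71.4% called in either direction beside 61.2% of all genes, a share near that of all genes. The receptor kinase Ddr1, common in epithelia, rose 3-fold to 101 ± 9.21 RPKM in cKO, against 33.7 ± 3.49 RPKM in WT (limma adjusted p = 6.1e-05). Itga11, the collagen-binding integrin chain of fibroblasts, fell 32.2-fold to 0.76 ± 0.794 RPKM in cKO, against 24.5 ± 2.22 RPKM in WT, and 80.2-fold without cKO replicate 3 (limma adjusted p = 8.05e-05). The proteoglycan Cspg4, a collagen VI receptor, rose to 4.71 ± 1.26 RPKM in cKO, against 0.0167 ± 0.0208 RPKM in WT (limma adjusted p = 0.000107), and the syndecan Sdc1 fell 1.65-fold (limma adjusted p = 0.000234).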

How the data were processed

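Polyadenylated RNA was sequenced as stranded libraries with 151 bp paired reads, per the labels. The authors deposited RPKM values with 2 decimals, 1 column per library, and per the submitters' processing notes used cutadapt 2.8, STAR 2.7.1a, RSEM 1.3.1 and GRCm38. The annotation version is not given in the sources used here. Of the 55471 identifiers, 55230 had a symbol in GENCODE M21, whose coordinates are used, and 1 gene of the lists, Ctage5, was not matched.

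Depth was estimated from the values below 0.3 RPKM of genes with 1 transcript of 800 to 2000 bp, less 200 bp. Of these values 92.1 to 96.6% were whole fragment numbers within a tolerance of 0.2, against 40% by chance. Floors cover counting error only.

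Differences were tested 2-sided with limma 3.58.1 (R 4.3.3) on log2(RPKM + 1), with a variance prior that follows the mean, genotype as the only term and genes averaging 1 RPKM or more. Log2 differences on this scale understate the change of low genes. Folds are ratios of mean RPKM and are left out where a library of the lower group was under the floor of 3 fragments. Sums and ratios were tested with exact permutation tests (scipy 1.17.1). The procedure was tested on simulated data. The members and gene lists were chosen with earlier results of these data known. Every chain is accounted for. Chains with a mean of at least 5 RPKM in either group are given by library, and of each list the 4 genes with the smallest p among those that passed are named. Alternatives were other pseudocounts, minimum means, scalings, variance priors, a replicate block, chromosome centring, sample weights, other thresholds and leaving out each library. Figures were drawn with matplotlib 3.10.9 and tables built with pandas 2.3.3 and numpy 2.4.6 under Python 3.11.15.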

Additional observations from a re-analysis of the deposited data

How the results depend on the processing

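All 15 chains that fell and 4 of the 5 that rose (Col4a1 being the exception) kept their calls under each of the 21 alternatives that tested them. With an absolute log2 difference of at least 1 required, 4 chains rose and Col4a1 (0.85) was lost. With a minimum mean of 0.1 RPKM, 8 of 32 tested chains rose and 18 fell. Of all 16715 genes tested at that minimum, 4865 rose and 3804 fell. The added calls among the chains were Col4a3, Col4a4 and Col11a2 in the higher direction and Col6a4, Col17a1 and Col28a1 in the lower. With a minimum mean of 5 RPKM, which tested 16 chains, 3 rose and 12 fell. Of all 9268 genes tested at that minimum, 3330 rose and 2487 fell. Leaving out each library in turn gave 5 chains higher each time and 15 to 16 lower. Over all genes, these fits gave 3504 to 4483 higher and 2626 to 3623 lower. Among the chains that did not pass, Col2a1 fell with sample weights (log2 difference −1.20, limma adjusted p = 0.0176) and without cKO replicate 3 (−1.39), and the log2 difference of Col18a1, −0.18, ranged from −0.50 to 0.01 when each library was left out, being above 0 only without cKO replicate 1. The cause was not tested. Over all genes, 1632 rose and 1499 fell with the log2 threshold. In the lists of collagen modification, processing and receptor genes, 4 rose with each chromosome centred, and 4 rose and 11 fell with the log2 threshold. No pairing by replicate number was detected. Deviations of same-numbered libraries had r of −0.019 to 0.05, and those of differently numbered libraries −0.042 to 0.049. With 3 libraries per group this cannot exclude a shared preparation. With the replicate block 5 chains rose and 15 fell, with 3811 genes higher and 2938 lower in all. Scaling moved the median of all genes from 0.09 to 0.01 (median of ratios) and 0.13 (equal totals). The 20 chains not tested were left out by the minimum mean of 1 RPKM. Some of them, such as Col4a3 and Col11a2, lay above the floor of 3 fragments. Depth limits what the values show for those under the floor.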
